A study of Mus musculus with 6 samples.

Results

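Chromosome 6 of the mouse carries, in the 2.5 Mb that begin at 88000000 (mm10), a stretch of genes around the long non-coding RNA gene 4930512J16Rik. The genes described here are those whose locus in the authors' deposited table starts inside that interval, whatever their test status, leaving out names that begin with Rab, Slc, Klhl or Rp. That gave 83 of the table's 55331 genes, and 1 gene, Rpn1, was left out by its name. The stretch was selected on the PTBP1_KO and WT values of 4930512J16Rik, its fold change and its q-value among them. The values of its genes in that comparison are therefore given as a description and not as evidence that the stretch stands apart.

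The study sequenced polyadenylated RNA of whole testis, in 6 libraries, at an age of 35 days. The 3 PTBP1_KO libraries came from mice of genotype Ptbp1fl/fl; Amh-Cre+/-, in which Cre recombinase is driven by the Amh promoter, active in Sertoli cells, the somatic cells that nurse the germ cells. The 3 WT libraries came from Ptbp1fl/fl mice with no Cre, so both groups carried floxed Ptbp1 alleles. No library carried Amh-Cre without floxed Ptbp1, so loss of Ptbp1 and presence of the transgene cannot be told apart. The strain of all mice was given as mixed, and whether every library stands for a separate animal is not in the labels. PTBP1 binds pyrimidine-rich RNA and is known as a repressor of exons in splicing.

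The authors' deposited table holds 1 FPKM value (fragments mapped to a gene, scaled for transcript length and sequencing depth) for each group and Cuffdiff's test of the difference, with no value per library and no spread between libraries. All FPKM values below are the authors' group values and carry no SD. A p-value or q-value from that table speaks for these libraries only. Low FPKM values of single-exon genes moved in steps, from which 1 FPKM at an effective length of 1 kb was worth about 204.3 fragments over the PTBP1_KO group and 226.0 over the WT group, taking each group value as the mean of its 3 libraries. The targeted gene Ptbp1 stood at 46.7 FPKM in PTBP1_KO and 49.97 FPKM in WT (q = 0.999 in the authors' deposited table). The Amh promoter that drives Cre is active in Sertoli cells, while most cells of the organ are germ cells. Why the Ptbp1 values lie close was not tested, and this gene-level value does not check the labels.

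Long intergenic non-coding RNAs are transcripts from between protein-coding genes that hold no known protein. The testis transcribes more of them than most tissues do, chiefly in meiotic and post-meiotic germ cells, and for most of them no function is known. The protein-coding genes of the stretch include a few of known use in germ cells and mitochondria, and a cluster of vomeronasal type 1 receptors, which detect pheromones in the nose. In GENCODE release M21 the 83 genes comprised 37 protein-coding genes, 10 long intergenic RNAs, 7 antisense RNAs and 12 entries of class TEC, which await experimental evidence, with pseudogenes, small RNAs and 1 sense intronic gene making up the rest. Of the 83, 4930512J16Rik, Chchd6 and Klf15 were past a q-value of 0.05 in the authors' deposited table.

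The 250 bases before the outermost transcribed base of each of these genes are printed, as the sequence beside a start of transcription. They come from RefSeq on GRCm38.p6, the assembly that mm10 names. Letters in capitals mark matches, on either strand, to 6 short motifs that were chosen after the data were seen. These are the TATA box TATAAA, the CCAAT box, the E-box CACGTG, the nuclear receptor half-site AGGTCA, the GC box written GGGCGG and the cAMP response element TGACGTCA. Each RefSeq start was also the outermost start in GENCODE, which lists further starts inside each gene. The sequences run 5′ to 3′ on the gene's own strand, from chr6:89285726-89285975 on the minus strand for 4930512J16Rik, chr6:89595653-89595902 on the minus strand for Chchd6 and chr6:90462326-90462575 on the plus strand for Klf15.
4930512J16Rik: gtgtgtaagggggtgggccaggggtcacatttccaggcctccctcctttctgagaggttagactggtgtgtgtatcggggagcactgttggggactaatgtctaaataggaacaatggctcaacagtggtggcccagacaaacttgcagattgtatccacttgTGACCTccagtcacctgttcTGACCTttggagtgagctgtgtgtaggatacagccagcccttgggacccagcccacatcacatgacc
Chchd6: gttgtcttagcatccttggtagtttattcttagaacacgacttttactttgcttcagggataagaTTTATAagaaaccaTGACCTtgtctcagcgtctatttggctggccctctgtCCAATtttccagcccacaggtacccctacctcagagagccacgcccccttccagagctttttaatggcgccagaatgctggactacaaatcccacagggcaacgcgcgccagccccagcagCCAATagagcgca
Klf15: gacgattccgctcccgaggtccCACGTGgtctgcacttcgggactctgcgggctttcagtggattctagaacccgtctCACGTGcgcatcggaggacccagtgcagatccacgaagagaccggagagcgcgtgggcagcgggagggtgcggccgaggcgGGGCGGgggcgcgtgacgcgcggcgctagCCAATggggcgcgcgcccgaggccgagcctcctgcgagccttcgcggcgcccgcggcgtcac

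The 3 stretches differ in composition. That of Klf15 had a GC content of 72.0% and 37 CG dinucleotides, that of Chchd6 50.4% and 8, and that of 4930512J16Rik 53.6% and 1, against a median GC content of 52.4% over 32851 RefSeq promoters. The 4930512J16Rik stretch held 2 AGGTCA half-sites, both on the opposite strand, the nearer ending 62 bases before the start, and no match to the other motifs. Of all promoters, whatever their GC content, 14.0% held at least 1 such half-site. The Klf15 stretch held 2 CACGTG E-boxes, of which at least 1 is found in 6.02% of all promoters. It also held a GGGCGG box (32.7% of all) and a CCAAT box (33.8% of all). The Chchd6 stretch held 2 CCAAT boxes, 1 AGGTCA half-site and, 185 to 180 bases before the start, a TATAAA on the opposite strand (12.4% of all). None of the 3 stretches held TGACGTCA (1.55% of all). These are matches of letters, and no binding was measured.

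4930512J16Rik (ENSMUSG00000107622.1, chromosome 6, 89269511 to 89285725, minus strand, mm10) stood at 59.8 FPKM in PTBP1_KO testes and 12.2 FPKM in WT testes. It was thus 4.91 times as high in PTBP1_KO, a log2 fold change of 2.30 with p = 5e-05 and q = 0.00848 in the authors' deposited table. That p is the smallest the table holds, and 130 genes share it. GENCODE gives the gene 3 transcripts, the longest of 1859 bases in 4 exons. If all reads came from that transcript, the values rested on about 19400 fragments in PTBP1_KO and 4400 in WT, so counting error is small beside the difference, while the spread between libraries is not known. In whole testis a different number of cells of a type and a different amount of RNA per cell cannot be told apart.

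The level of 4930512J16Rik was high for its class in both groups. Among 2062 tested long intergenic RNAs it ranked at place 50 in PTBP1_KO and at place 270 in WT, and the median tested long intergenic RNA had a mean of 1.20 FPKM. Within the 83 genes of the stretch it was at place 7 in PTBP1_KO and at place 14 in WT. By fold rise it was at place 52 of 22020 when all tested genes with 2 values above 0 are ranked, and at place 12 of the 15789 with at least 1 FPKM in a group. Tested genes with at least 10 FPKM in a group and values above 0 in both numbered 7675. Of these 4930512J16Rik was at place 3 by fold rise and at place 1 by Cuffdiff's signed statistic, counted from the highest. By that statistic it was at place 2 both of the 22020 genes and of the 15789. Among those 7675 genes, the larger rises in the authors' deposited table were those of 1700030L22Rik (14.1 FPKM in PTBP1_KO and 0.0208 FPKM in WT, q = 0.661) and 1700031P21Rik (35.7 FPKM in PTBP1_KO and 6.02 FPKM in WT, q = 0.00848). Of the 3453 tested genes whose mean FPKM lay within a factor of 2 of its own, 2 had a log2 fold change of 1 or more, 4930512J16Rik and 1700031P21Rik, and 2 had one of -1 or less.

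**Figure D1:**
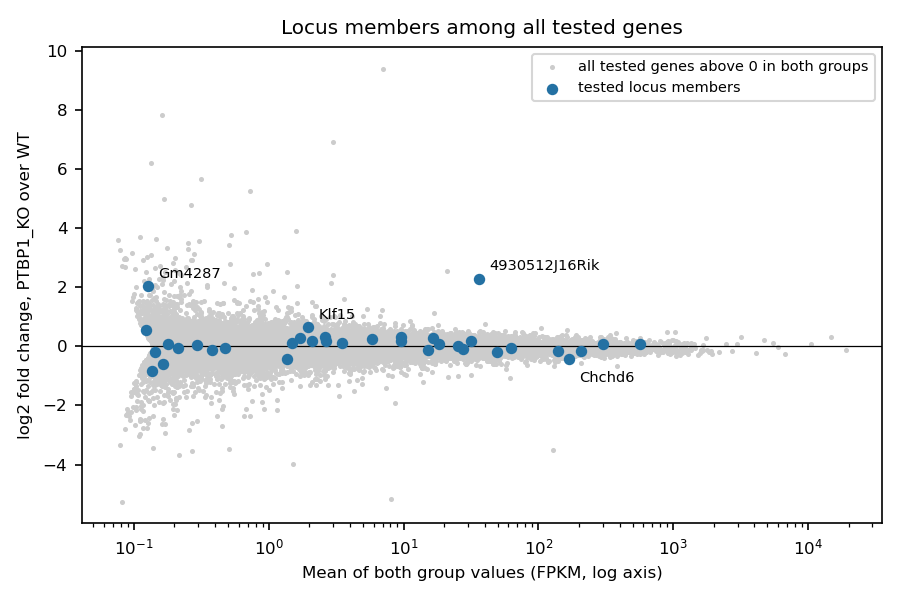
Deposited log2 fold change, PTBP1_KO over WT, against the mean of both group values in FPKM on a log axis, for all tested genes above 0 in both groups (grey) and the tested genes of the chromosome 6 stretch (blue). 4930512J16Rik, at a mean of 36.0 FPKM and a log2 fold change of 2.30, lies far above the grey band at its level, and Gm4287, at 2.03, lies at a mean of 0.126 FPKM.

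No other GENCODE gene held a near-identical copy of 4930512J16Rik, at 95% identity over 80% of its length, and no other gene of the stretch overlapped it. Its longest transcript held 9 UCUU and 1 CUCUCU, pyrimidine motifs that PTBP1 is known to bind. That is 4.84 UCUU per kb, against a median of 5.11 per kb over 21860 longest transcripts of tested genes. The 1 CUCUCU is 0.538 per kb, against a median of 0.315 per kb. The longest Chchd6 transcript held 3.74 UCUU and 0.935 CUCUCU per kb, and the longest Klf15 transcript held 2.82 UCUU per kb and 0 CUCUCU. These are matches of letters in spliced transcripts. Introns were not searched, and no binding of PTBP1 was measured.

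The genes next to 4930512J16Rik did not share the size of its difference. On the side of lower coordinates the nearest genes were non-coding RNA genes and pseudogenes, of which Gm44204 (10.4 kb away) stood at 0.0108 FPKM in PTBP1_KO and was listed at 0 in WT. Gm839, 53.3 kb away on the same strand, stood at 0.0252 FPKM in PTBP1_KO and 0.00896 FPKM in WT. Both were too low for Cuffdiff to test, and at 1 kb a value of about 0.0153 FPKM in PTBP1_KO or 0.0151 FPKM in WT stands for 3 fragments in 1 library. The nearest tested gene on that side, the long intergenic RNA gene 4933427D06Rik, lay 159.5 kb away at 1.56 FPKM in PTBP1_KO and 1.44 FPKM in WT (q = 0.999 in the authors' deposited table). Beyond it Tpra1 stood at 1.86 FPKM in PTBP1_KO and 1.53 FPKM in WT, and Mcm2, a subunit of the helicase that licenses DNA replication, at 3.68 FPKM in PTBP1_KO and 3.36 FPKM in WT. Neither was past the threshold.

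On the side of higher coordinates, upstream of the start of 4930512J16Rik, the nearest tested gene was Plxna1, a semaphorin receptor, 30.6 kb away on the same strand. It stood at 10.6 FPKM in PTBP1_KO and 8.42 FPKM in WT, with a log2 fold change of 0.34 and a q-value of 0.876 in the authors' deposited table. Gm26811, an antisense RNA that overlaps the end of Plxna1, stood at 0.0343 FPKM in PTBP1_KO and 0.0616 FPKM in WT and was not tested. The next tested gene, Chchd6, lay 97.4 kb away and was lower in PTBP1_KO. Of the tested genes within 400 kb, Podxl2, Mcm2, Tpra1, 4933427D06Rik and Plxna1 had the higher value in PTBP1_KO, none of them past the threshold, and Chchd6 and Txnrd3 had the lower value.

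**Figure D2:**
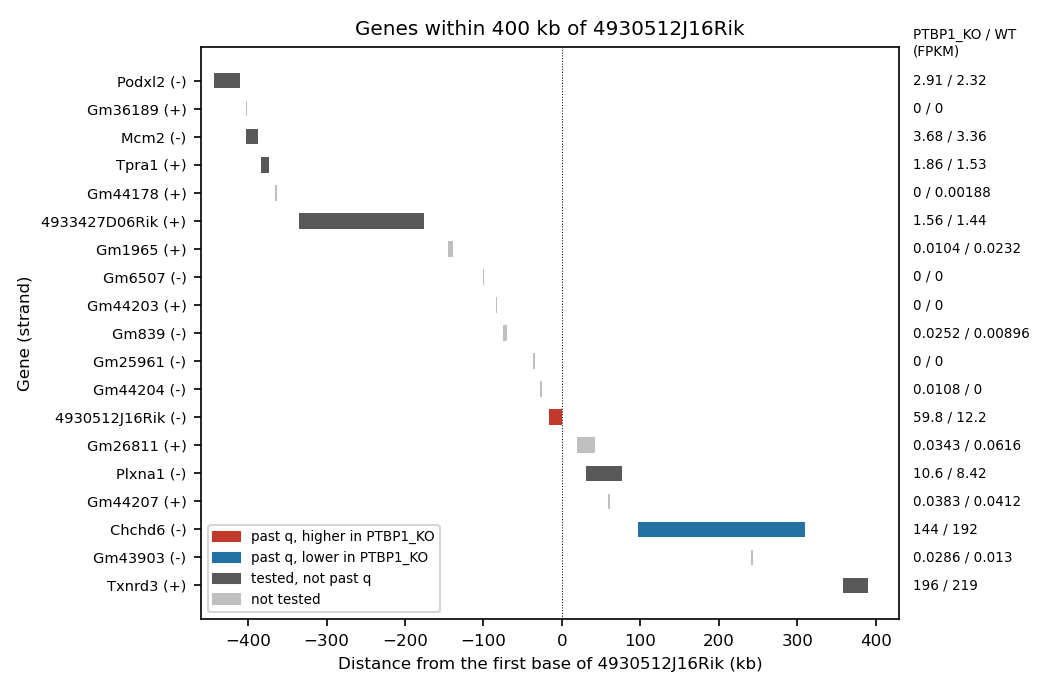
Genes of the stretch within 400 kb of 4930512J16Rik, drawn to scale by their distance in kb from its first transcribed base, with the strand in brackets and the FPKM of PTBP1_KO and WT at the right. 4930512J16Rik (red, 59.8 FPKM in PTBP1_KO and 12.2 FPKM in WT) has untested genes (light grey) and tested genes not past the threshold (dark grey) beside it, and Chchd6 (blue) is the nearest other gene past it.

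Chchd6 (ENSMUSG00000030086.16, 89383146 to 89595652, minus strand) encodes a subunit of MICOS, the complex that shapes the crista junctions of mitochondria. It stood at 144.1 FPKM in PTBP1_KO and 192.3 FPKM in WT, or 74.9% of the WT value, a log2 fold change of -0.42 with p = 5e-05 and q = 0.00848 in the authors' deposited table. It was at place 4 of the 83 genes by level in both groups. Its statistic was -2.32, against 7.95 for 4930512J16Rik with the same p. By size of fold it was at place 134 among the lower values of those 7675 genes. A normal p was taken from the statistic and adjusted with Benjamini-Hochberg over the 22020 tested genes that have a statistic. It put Chchd6 at an adjusted p of 0.99995 and 4930512J16Rik at 1.02e-11. By that rule 1 of the 35 tested genes of the stretch was called, against 0.0863% of those 22020 genes, or 0.0409% as higher. That gene is 4930512J16Rik, on whose values the stretch was selected, so nothing is read from the count. A normal p of a statistic of -2.32 is far larger than the deposited p of 5e-05. The rule thus calls fewer genes, and without values per library it does not show that Chchd6 was unchanged.

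Klf15 (ENSMUSG00000030087.11, 90462576 to 90475238, plus strand) encodes a Krüppel-like zinc-finger transcription factor known for control of glucose and amino acid metabolism. It stood at 2.39 FPKM in PTBP1_KO and 1.52 FPKM in WT, 1.57 times as high in PTBP1_KO, a log2 fold change of 0.65 with p = 0.00015 and q = 0.0202 in the authors' deposited table. These values rested on about 1080 fragments in PTBP1_KO and 765 in WT if they came from its longest transcript of 2482 bases. Klf15 lies 1177 kb from 4930512J16Rik, with the vomeronasal receptor cluster between them. With the normal p from its statistic of 2.14 the adjusted p was 0.99995. As for Chchd6, the deposited p is far below a normal p of that statistic.

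Of the 83 genes, 35 had test status OK, and 2 of these were higher and 1 lower in PTBP1_KO at a q-value under 0.05 in the authors' deposited table. Over all 22048 tested genes 1.16% were called in either direction, 0.458% as higher and 0.703% as lower. Since the stretch was picked for its values in this comparison, nothing is read from its count. An unadjusted p under 0.05 was held by 4 of the 35, the 3 called genes and Gm4287, against 8.98% of all tested genes. The other 48 genes were not tested, and their highest value was 0.107 FPKM. Listed at 0 in both groups were 24 genes, while 52 were above 0 in both, 3 in PTBP1_KO alone and 4 in WT alone. Among the 25 tested genes with at least 1 FPKM in a group, 23 had a log2 fold change between -0.5 and 0.5, and the exceptions were 4930512J16Rik and Klf15. The median difference of log2(FPKM + 1), PTBP1_KO minus WT, over the 35 tested genes was 0.06, against 0.004 over all 22048 tested genes. That scale understates the change of low genes. Summed over the stretch, the FPKM was 1720 in PTBP1_KO and 1706 in WT, and without 4930512J16Rik it was 1661 in PTBP1_KO and 1694 in WT.

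**Figure D3:**
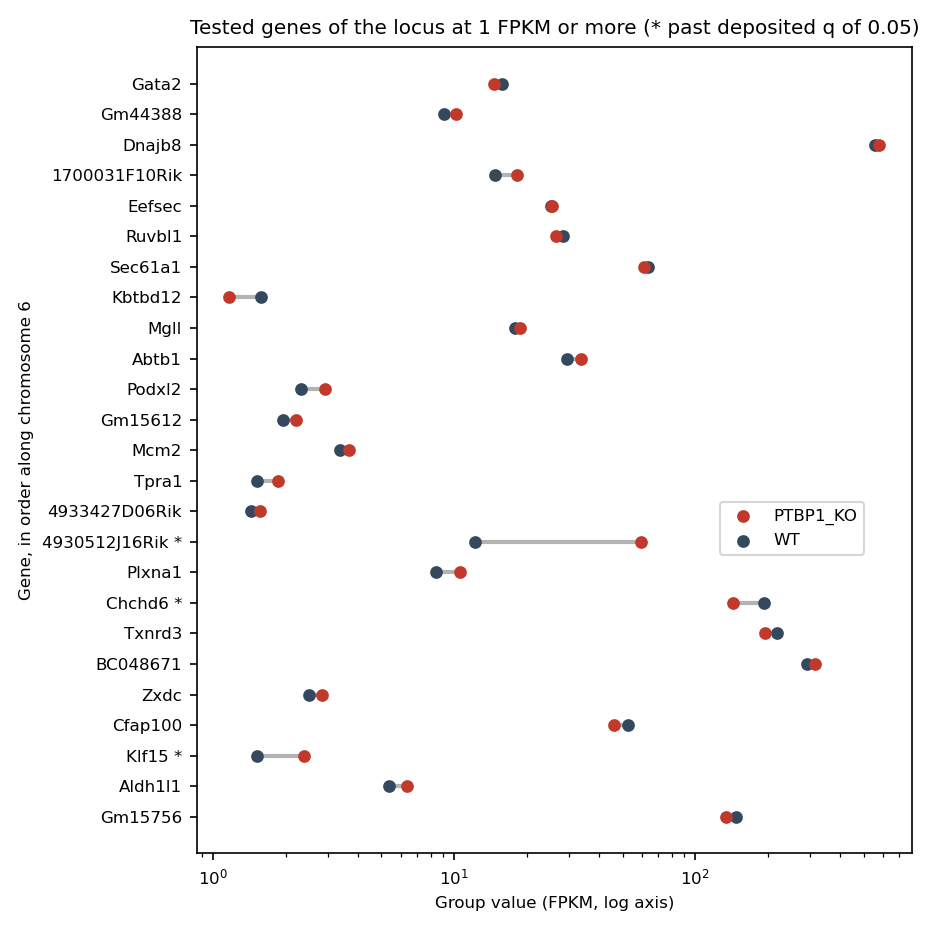
Group values in FPKM (log axis) of the 25 tested genes of the stretch with at least 1 FPKM in a group, in order along chromosome 6, with PTBP1_KO in red and WT in dark blue and an asterisk on genes past a deposited q of 0.05. The points of most genes nearly touch, and 4930512J16Rik has the widest gap, with 59.8 FPKM in PTBP1_KO and 12.2 FPKM in WT.

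Nuclear and gene expression factors stood close in both groups apart from Klf15. Of the 13 genes listed for this role 6 lay in the stretch, all tested, and Klf15 alone was past the threshold, with a median difference of 0.05. Gata2, a zinc-finger transcription factor of blood and endothelial lineages, stood at 14.6 FPKM in PTBP1_KO and 15.9 FPKM in WT. Ruvbl1, an ATPase of chromatin remodelling complexes, stood at 26.6 FPKM in PTBP1_KO and 28.3 FPKM in WT, and a near-identical gene, Gm5837 on chromosome 1, makes its value uncertain. Eefsec, the elongation factor that delivers selenocysteine, stood at 25.5 FPKM in PTBP1_KO and 25.3 FPKM in WT. The zinc-finger gene Zxdc stood at 2.83 FPKM in PTBP1_KO and 2.51 FPKM in WT. The 5 of these 6 genes other than Klf15 had q = 0.999 in the authors' deposited table.

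None of the 5 tested genes of the secretory pathway and cell surface was past the threshold in Cuffdiff's test as deposited, nor at an unadjusted p under 0.05, and their median difference was 0.17. Sec61a1, the pore subunit of the translocon of the endoplasmic reticulum, stood at 61.3 FPKM in PTBP1_KO and 63.4 FPKM in WT. Podxl2, a sialomucin of the cell surface, stood at 2.91 FPKM in PTBP1_KO and 2.32 FPKM in WT (q = 0.900 in the authors' deposited table). Chst13, a sulfotransferase of chondroitin, stood at 0.131 FPKM in PTBP1_KO and 0.197 FPKM in WT (q = 0.742 in the authors' deposited table). The group thus held values on both sides of 0, from a log2 fold change of -0.59 for Chst13 to 0.34 for Plxna1.

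Among 7 genes listed as metabolic genes of the stretch, 6 were tested, Chchd6 was lower, and the median difference was -0.05. The list also holds the flagellar gene Cfap100 and Abtb1, an ankyrin and BTB domain gene. Txnrd3, a thioredoxin reductase of spermatids that itself carries selenocysteine, stood at 195.5 FPKM in PTBP1_KO and 218.6 FPKM in WT, with an unadjusted p of 0.0898 and q = 0.679 in the authors' deposited table. Cfap100, named for its place in cilia and flagella, stood at 46.1 FPKM in PTBP1_KO and 52.6 FPKM in WT (q = 0.999 in the authors' deposited table). Chchd6, Txnrd3 and Cfap100 had the lower value in PTBP1_KO, though Chchd6 alone was past the threshold. The other tested genes had the higher value in PTBP1_KO, none past the threshold. Mgll, the lipase of monoacylglycerols, was at 18.8 FPKM in PTBP1_KO and 17.9 FPKM in WT, Abtb1 at 33.6 FPKM in PTBP1_KO and 29.5 FPKM in WT, and Aldh1l1, a folate enzyme, at 6.37 FPKM in PTBP1_KO and 5.35 FPKM in WT. Uroc1, which breaks down a product of histidine, was at 0.00769 FPKM in PTBP1_KO and 0.0142 FPKM in WT and not tested.

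Dnajb8 and BC048671, the genes at places 1 and 2 by level in both groups, and Kbtbd12 lie on no role list. Dnajb8, a co-chaperone abundant in testis, was at 580.9 FPKM in PTBP1_KO and 554.0 FPKM in WT (q = 0.999 in the authors' deposited table). BC048671 was at 312.7 FPKM in PTBP1_KO and 292.0 FPKM in WT (q = 0.987 in the authors' deposited table). Kbtbd12, a gene with BTB and kelch domains, was at 1.17 FPKM in PTBP1_KO and 1.58 FPKM in WT (q = 0.829 in the authors' deposited table). None of these was past the threshold.

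The vomeronasal receptors were near silent. Of 23 genes and pseudogenes whose names begin with Vmn1r, 13 were listed at 0 in both groups and 3 were tested. Vmn1r43 stood at 0.296 FPKM in PTBP1_KO and 0.288 FPKM in WT. Vmn1r53 stood at 0.134 FPKM in PTBP1_KO and 0.154 FPKM in WT. Vmn1r40 stood at 0.0968 FPKM in PTBP1_KO and 0.174 FPKM in WT (q = 0.741 in the authors' deposited table). Summed over the 23 the FPKM was 0.603 in PTBP1_KO and 0.713 in WT. V1ra8, another receptor of the cluster, was listed at 0 in both groups.

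Of 38 non-coding, predicted or unnamed genes, 12 were tested, and 4930512J16Rik alone was past the threshold, with a median difference of 0.06. The most abundant was Gm15756, an antisense RNA at the end of Aldh1l1, at 134.0 FPKM in PTBP1_KO and 147.7 FPKM in WT (q = 0.938 in the authors' deposited table). The antisense RNA 1700031F10Rik stood at 18.2 FPKM in PTBP1_KO and 14.8 FPKM in WT (q = 0.999 in the authors' deposited table). It shares 86.0% of its longest transcript with Dnajb8 on the opposite strand, as Gm15756 shares 66.0% with Aldh1l1. The kit keeps strand, but the strand setting of the counting is not given in the sources used here, so these values are uncertain. The processed pseudogene Gm4287 (90235689 to 90236273) had the next largest fold after 4930512J16Rik among the tested genes, at 0.203 FPKM in PTBP1_KO and 0.0496 FPKM in WT, with an unadjusted p of 0.0249 and q = 0.415 in the authors' deposited table. Its values stand for about 13.1 fragments in PTBP1_KO and 3.65 in WT, and it did not pass the threshold. The genes Gm44388 (10.2 FPKM in PTBP1_KO and 9.08 FPKM in WT) and Gm15612 (2.22 FPKM in PTBP1_KO and 1.95 FPKM in WT) were also tested and not past it. Lower still were Gm44430, at 0.462 FPKM in PTBP1_KO and 0.480 FPKM in WT, and C030015A19Rik, at 0.359 FPKM in PTBP1_KO and 0.394 FPKM in WT.

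On the rest of chromosome 6, 1.05% of tested genes were past the threshold. The 114 genes in the 2.5 Mb below the interval had 61 tested, with 1 past the threshold. This was D6Ertd527e, lower at 2.77 FPKM in PTBP1_KO and 4.03 FPKM in WT (q = 0.0420 in the authors' deposited table). The 58 genes in the 2.5 Mb above it had 27 tested and 0 past the threshold in Cuffdiff's test as deposited. The median difference of log2(FPKM + 1) was 0.02 below and -0.02 above. At the lower edge Rpn1 (106.8 FPKM in PTBP1_KO and 114.9 FPKM in WT), left out by its name, was the first tested gene inside and Gm38708 (0.184 FPKM in PTBP1_KO and 0.175 FPKM in WT) the first that was kept. Among the tested genes whose shared deposited locus started just below that edge were Rab7 (45.5 FPKM in PTBP1_KO and 41.3 FPKM in WT) and 4933412L11Rik (2.94 FPKM in PTBP1_KO and 2.65 FPKM in WT). At the upper edge Aldh1l1 and Gm15756 were the last tested genes inside, and Slc41a3 (10.2 FPKM in PTBP1_KO and 9.57 FPKM in WT) lay just beyond.

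**Figure D4:**
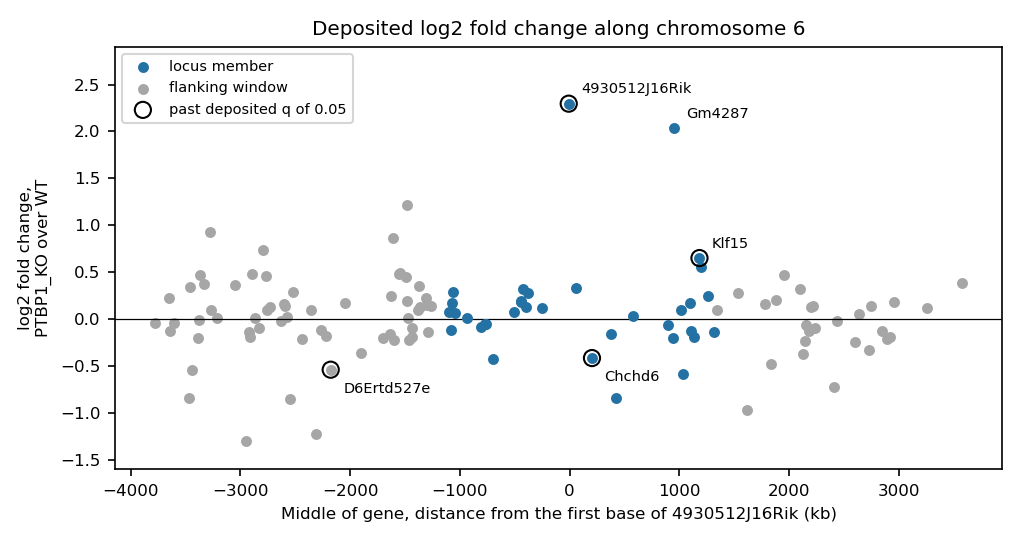
Deposited log2 fold change, PTBP1_KO over WT, of tested genes of the stretch (blue) and of the 2.5 Mb on either side (grey), against the distance in kb of the gene's middle from the first base of 4930512J16Rik, with circles on genes past a deposited q of 0.05. Apart from 4930512J16Rik at 2.30 and the low pseudogene Gm4287 at 2.03, the blue points lie between -0.84 and 0.65.

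Summed levels of cell type markers also differed between the groups, by ratios of 0.886 to 3.44 over 10 lists. The summed FPKM of 15 Sertoli cell markers was 1886 in PTBP1_KO and 1582 in WT, with a higher value in PTBP1_KO for 14 of the 15, and Clu past the threshold. Clu alone stood at 1199 FPKM in PTBP1_KO and 853.6 FPKM in WT, and the other 14 summed to 687.1 FPKM in PTBP1_KO and 728.5 FPKM in WT, so the direction of the sum rested on Clu. Ctsl, the 1 marker of the list with the lower value in PTBP1_KO, stood at 322.5 FPKM in PTBP1_KO and 396.6 FPKM in WT. The 9 leukocyte markers summed to 64.5 FPKM in PTBP1_KO and 47.3 FPKM in WT, all 9 higher, and the 9 stroma and matrix markers to 238.8 FPKM in PTBP1_KO and 192.6 FPKM in WT, 8 of them higher. Leydig cell markers summed to 1414 FPKM in PTBP1_KO and 1153 FPKM in WT, with 4 of 9 higher and a median difference of -0.10. Without Insl3 (1049 FPKM in PTBP1_KO and 749.6 FPKM in WT) the other 8 summed to 365.7 FPKM in PTBP1_KO and 403.8 FPKM in WT. Endothelial markers summed to 13.3 FPKM in PTBP1_KO and 11.4 FPKM in WT, with 8 of 9 higher, and spermatogonial markers to 100.1 FPKM in PTBP1_KO and 84.0 FPKM in WT, with 7 of 8 higher.

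Meiotic and round spermatid markers lay the other way. The 8 spermatocyte markers summed to 794.2 FPKM in PTBP1_KO and 887.9 FPKM in WT, 0 of them higher, and the 8 round spermatid markers to 845.3 FPKM in PTBP1_KO and 954.0 FPKM in WT, 1 of them higher. For the 8 elongating spermatid markers the sums were 55436 FPKM in PTBP1_KO and 52227 FPKM in WT, with 7 higher, and without Tnp1 they were 37192 FPKM in PTBP1_KO and 32454 FPKM in WT. The 8 epididymis markers summed to 8.11 FPKM in PTBP1_KO and 2.36 FPKM in WT, of which Crisp1 made up 5.90 FPKM in PTBP1_KO and 0.0482 FPKM in WT, and the other 7 summed to 2.21 FPKM in PTBP1_KO and 2.31 FPKM in WT. Of that list Lcn8 was listed at 0 in both groups, and Adam28, Lcn5, Lcn9 and Spink12 were under 0.1 FPKM. At the deposited q under 0.05, 1 of 15 tested Sertoli, 1 of 9 Leydig and 2 of 9 stroma markers were higher. So were 2 of 9 leukocyte, 2 of 8 spermatogonial and 1 of 3 tested epididymis markers. No marker of the 10 lists was lower. Over all tested genes 0.458% were higher and 0.703% lower. The lists were chosen with earlier results of these data known, so nothing is read from these counts. The part of any of these lists in the values of 4930512J16Rik, Chchd6 and Klf15 was not tested.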

How the data were processed

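The 3 PTBP1_KO and 3 WT testis RNA-seq libraries were made with a stranded kit, per the labels' protocols. Tools named, with no role or setting, in the submitters' processing notes are STAR 2.6.1d, Trimmomatic 0.38, bcl2fastq 2.20, Cuffdiff and Cufflinks, with the build mm10. The authors' deposited table gives, per the file headers, an FPKM value per group, a log2 fold change, a signed test statistic (a score), a p-value and a q-value from Cuffdiff. How libraries were scaled, and the annotation release, is not given in the sources used here.

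Groups follow the library titles. Calls are the deposited q under 0.05 among 22048 genes with status OK, of which 22020 have a deposited statistic. The 83 members and all lists were chosen with earlier results of these data known. Named genes were 4930512J16Rik, members past the threshold, the 10 with the largest difference of log2(FPKM + 1), the 10 with the highest mean FPKM, 3 tested neighbours on each side, and role list members. Medians cover tested genes with at least 0.1 FPKM in a group. Alternatives were a normal p from the statistic, other q thresholds, a floor of 1 FPKM, pseudocounts of 0.1 and 0.01, narrower flanks and the genes left out by name. GENCODE M21 held all 83 identifiers, 82 with the same version, and gave positions. RefSeq promoters were found for 42 of the 83. For near-identical copies, the longest transcript of each of the 35 tested members was searched against all GENCODE transcripts (BLAST 2.17.0). Fragment steps were read from single-exon genes of 1500 to 6000 bp. Of 273 values in PTBP1_KO and 251 in WT that were small enough for 1 fragment, 99.6% and 100.0% lay within 1% of one of 3 steps, which were fitted to the same values. The adjustment of the normal p and the fit of the steps were checked on simulated data. The simulated statistics were drawn as normal, so whether Cuffdiff's statistic is normal was not tested. Intervals were not computed, since the table holds no spread, and fragment numbers cover counting error only. Python 3.11.15 was used.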

Additional observations from a re-analysis of the deposited data

How the results depend on the processing

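No paired analysis was possible because the deposited table holds 1 value per group, and for the same reason no replicate could be left out. With a normal p from the deposited statistic 1 member was higher (4930512J16Rik) and 0 were lower, where 2 and 1 were called with the deposited q; over the 22020 genes with a statistic 0.0863% passed that way. The adjusted p of Chchd6 and of Klf15 was then 0.99995. Their deposited p is far below a normal p of the same statistic, and without values per library neither can be preferred. The stretch was selected on the values of 4930512J16Rik, so nothing is read from its call. At a deposited q under 0.01, 1 was higher and 1 lower. The counts were 2 higher and 1 lower at a q under 0.1, with at least 1 FPKM in a group and with the name left in. The median difference of the tested members ranged between 0.04 with Rpn1 left in and 0.10 at a floor of 1 FPKM; without the called members, an alternative added after the data were seen, it was 0.04. With flanks of a shorter length the medians were 0.04 below and -0.02 above, with 1 and 0 genes called. A pseudocount cannot change the sign of a difference, only its size, so the sign is no check. Between pseudocounts of 1 and 0.01 the difference of Gm4287 went from 0.20 to 1.84 and that of Klf15 from 0.43 to 0.65. That of Kbtbd12 went from -0.25 to -0.43, and that of 4930512J16Rik from 2.21 to 2.29. Levels under about 0.015 FPKM at 1 kb rest on 3 fragments of a library or fewer, and the spread between libraries is unknown for every value.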
